A study of Homo sapiens with 6 samples.

Results

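The genes described here are the molecular chaperones of the cytosol and mitochondria and their co-chaperones, measured as mRNA in A549 cells. They were chosen by name: protein-coding genes whose symbol starts with DNAJA, DNAJB, DNAJC, HSPA, HSP90 or CCT followed by a digit or letter (for CCT, a digit), together with HSPH1, HSPD1 and HSPE1 and without the 5 endoplasmic reticulum chaperones HSPA5, HSP90B1, DNAJB9, DNAJB11 and DNAJC3. The rule found 70 of the 58735 genes in the count table, under 69 symbols, since HSPA14 is listed under 2 identifiers. No measured value entered the rule. It also takes in some proteins of the endoplasmic reticulum or its membrane, such as DNAJC10, DNAJC1, DNAJB12 and DNAJB14, and germline forms such as HSPA2, CCT6B and DNAJB13.

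Chaperones hold unfolded proteins in solution and let them fold. HSP70 proteins bind and release short hydrophobic stretches in an ATP cycle that J-domain proteins (the DNAJ families) start and that the HSP110 proteins, acting as nucleotide exchange factors, reset. HSP90 receives partly folded clients such as kinases and steroid receptors from HSP70, while closed chambers fold other proteins: the CCT ring in the cytosol (actin and tubulin) and HSP60 with its HSP10 lid in mitochondria. Heat shock factor HSF1 induces the stress-responsive members by binding inverted nGAAn repeats, called heat shock elements, and many tumour cells express chaperones at high levels without any heat.

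A549 is an established human lung adenocarcinoma line, and the series concerns the secreted glutathione peroxidase GPX3 in that disease. The 3 OE_GPX3 libraries were labelled OE in both genotype and treatment and the 3 Vector libraries were labelled WT in both, with no other allele or agent; the labels gave no promoter, clone or time for the overexpression. RNA came from TRIzol lysates, and the protocol speaks of adapters ligated to small RNA although the files hold counts of whole genes. Nothing states that the replicates were separate cultures, so p-values measure only the spread between these libraries, which may be technical. GPX3 itself had 1311, 1031 and 1361 counts per 1000000 counts (CPM) in OE_GPX3 replicates 1, 2 and 3, against 36.0, 33.8 and 39.6 CPM in Vector replicates 1, 2 and 3, a 33.8-fold difference. Libraries held 15831693 to 18751815 counts. The epithelial markers EPCAM, KRT8, KRT18, KRT19 and CDH1 were present in every library, all 5 with a log2 fold change above 0 (median 0.32). KRT8 (0.36), KRT18 (0.32) and KRT19 (0.46) were higher in OE_GPX3 cells without overlap and uncalled (smallest adjusted p = 0.0541, KRT19, edgeR), and the part of this in the chaperone values was not tested. The endothelial, blood and hepatocyte markers PECAM1, PTPRC, CD3E and APOA2 were at or near 0. Of the blood-cell list CD14 alone was tested, at 11.6 to 16.9 CPM over the 6 libraries, and of the fibroblast list COL1A1 alone, at 3.07 to 6.73 CPM (log2 fold change 0.30).

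None of the chaperone genes was called as changed with GPX3. Its members together took 0.901%, 0.913% and 0.805% of all counts in OE_GPX3 replicates 1, 2 and 3, against 0.911%, 0.844% and 0.855% in Vector replicates 1, 2 and 3, ranges that overlap. These are bulk samples, in which fewer cells of a kind and less RNA per cell cannot be told apart. Of the 70 members 61 passed the filter on low counts, and 0 of these 61 were called at an adjusted p under 0.05 (edgeR quasi-likelihood test, Benjamini-Hochberg over 14458 genes), where 0.263% of all tested genes were called, 0.0968% higher and 0.166% lower. At an unadjusted p under 0.05 stood 7 members, or 11.5% of those tested, against 14.6% of all tested genes. DESeq2 called 0 of 68 members (0.428% of all genes it tested) and limma on log2(FPKM + 1) 0 of 49 (0.0925%). Leaving out Vector replicate 1 gave 4 called of 61 members, HSPA1A, HSPA1B and HSPA2 (higher) and HSPA13 (lower), where 0.788% of all tested genes were called. Leaving out OE_GPX3 replicate 1 gave 1 of 62 members, HSPA1B, but 657 genes in all (4.47%) were called in that fit, so the members' share lay below that of all genes. Without the filter on low counts HSPA1B alone of 68 members was called, with 0.481% of all genes. Its log2 fold change was 0.80 with and without the filter, and its SE was 0.29 with it and 0.13 without it.

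The 250 bases before the start of transcription were read from RefSeq (GRCh38.p14) for 62 of the members, each sequence running 5′ to 3′ on the gene's own strand. Capitals mark the heat shock element: 3 units (GAANNTTCNNGAA, either strand) in HSPA8 at chr11:123062137-123062386 (− strand) and DNAJB6 at chr7:157336754-157337003 (+ strand), and 2 units (GAANNTTC, which the longer motif contains and which reads the same on both strands) in HSPA1A at chr6:31815293-31815542 (+ strand) and HSPA1B at chr6:31827488-31827737 (+ strand). They are shown because HSPA8 is the most abundant HSP70 gene, HSPA1A and HSPA1B are the stress-inducible near copies on which the values below turn, and DNAJB6 carries the 3 units outside the HSP70 class.
HSPA8: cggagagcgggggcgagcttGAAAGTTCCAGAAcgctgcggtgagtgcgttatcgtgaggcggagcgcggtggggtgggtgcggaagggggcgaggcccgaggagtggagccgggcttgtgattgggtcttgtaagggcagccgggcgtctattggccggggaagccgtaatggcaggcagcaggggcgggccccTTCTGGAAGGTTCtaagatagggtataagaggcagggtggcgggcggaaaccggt
HSPA1A: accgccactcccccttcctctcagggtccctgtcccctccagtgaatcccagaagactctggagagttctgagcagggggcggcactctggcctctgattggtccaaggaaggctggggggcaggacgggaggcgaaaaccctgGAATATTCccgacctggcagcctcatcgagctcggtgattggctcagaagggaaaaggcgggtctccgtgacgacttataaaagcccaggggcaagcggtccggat
HSPA1B: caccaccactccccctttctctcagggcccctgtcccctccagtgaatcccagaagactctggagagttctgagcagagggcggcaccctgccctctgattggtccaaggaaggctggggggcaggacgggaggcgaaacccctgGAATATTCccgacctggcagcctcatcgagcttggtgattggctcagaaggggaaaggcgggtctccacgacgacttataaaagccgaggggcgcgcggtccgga
DNAJB6: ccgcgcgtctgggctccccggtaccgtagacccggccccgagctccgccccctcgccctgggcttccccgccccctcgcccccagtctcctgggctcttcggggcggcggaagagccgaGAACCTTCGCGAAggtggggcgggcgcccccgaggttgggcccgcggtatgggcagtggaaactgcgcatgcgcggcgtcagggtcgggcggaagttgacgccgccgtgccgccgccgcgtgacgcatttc
The HSPA1A and HSPA1B windows carried the same letters at 235 of 249 aligned bases (94.4%, after a shift of 1 base), and their 2-unit element began 106 and 105 bases before the start. HSPA8 held the 3-unit element at 2 places, once on each strand, the first beginning 230 bases before the start, and DNAJB6 held it once at 131 bases. GENCODE 29 begins some transcripts of HSPA8, HSPA1A and DNAJB6 further upstream than RefSeq does. The whole windows of HSPA8 and DNAJB6, and part of that of HSPA1A, thus lie inside its gene models. The 3-unit letters occurred in 3 of the 62 member windows (4.84%; HSPA8, HSPA6 and DNAJB6) and in 155 of 35116 windows of all genes (0.441%). The 2-unit letters occurred in 8 member windows (12.9%; also DNAJA1, DNAJB7, HSPA1A, HSPA1B and HSPA1L) and in 5.78% of all windows. The windows of DNAJB1, HSPH1 and HSP90AA1, described below as inducible, held neither motif. The DNAJB1 window also lies wholly inside its GENCODE gene model. That of HSP90AA1 lies at the far end of a long model (chr14:102080738-102139699). Other starts of these genes were not searched, so this does not show that their promoters lack the element. HSPA1A and HSPA1L are transcribed in opposite directions from a shared stretch, so their windows overlap and their 2-unit match is the same 8 bases read from either strand. These are matches of letters, and binding was not measured.

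Levels per gene length ranged widely among the chaperones. On the FPKM scale (fragments per kilobase of gene and 1000000 counts, as deposited), with means over all 6 libraries, 6 members stood at 100 or more, 21 between 10 and 100, 22 between 1 and 10, and 21 below 1. The cytosolic HSP90 HSP90AB1 was the highest at 551 ± 27.8 FPKM in OE_GPX3 cells and 500.4 ± 37.6 FPKM in Vector cells (SD, n = 3 each). It was followed by the constitutive HSP70 HSPA8 with 273 ± 34.3 and 220.5 ± 37.1 FPKM, and by the CCT subunits CCT7 with 230.2 ± 25.0 and 217 ± 11.4 FPKM and CCT3 with 173 ± 8.80 and 154 ± 3.55 FPKM, OE_GPX3 cells first in each pair. CCT7 did not stand apart from HSPA8 within these SDs. HSPD1 (mitochondrial HSP60) and CCT4 closed the group above 100 FPKM, and HSP90AA1, the inducible cytosolic HSP90, lay just below it at a mean of 90.9 FPKM. The FPKM length covers all exon bases of a gene, 5248 for HSP90AA1, whose longest transcript has 3510 bases. In CPM, HSP90AA1 (mean 480) stood above CCT4 (mean 323). Ranks and FPKM ratios between genes thus depend in part on the annotation. At the other end, 9 members were not tested. HSPA6, the strictly heat-inducible HSP70, had 10, 5 and 3 counts in OE_GPX3 libraries and 6, 4 and 9 counts in Vector libraries. DNAJA4, DNAJC28, DNAJC5B, DNAJC5G, DNAJB7 and CCT8L2 had at most 14 counts in any library, and DNAJB8 and DNAJC25-GNG10 had 0 in all 6. The exons of the read-through gene DNAJC25-GNG10 lie wholly within those of DNAJC25 (358 bases) and GNG10 (1090 bases) on the same strand, so its 0 is uncertain.

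**Figure D1:**
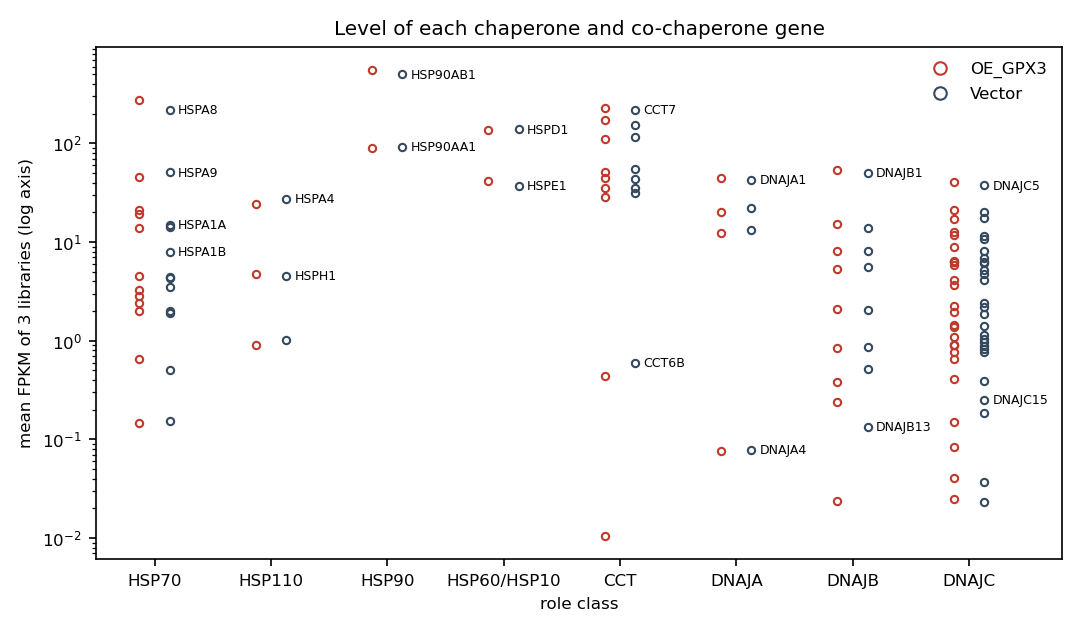
Mean FPKM of each chaperone gene (log axis) by role class, with OE_GPX3 cells as red circles on the left of each class and Vector cells as dark circles on the right; means of 0 cannot be drawn. HSP90AB1, HSPA8 and CCT7 were the 3 highest members, and the levels of the 2 groups lie close to each other in every class.

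The HSP70 genes had the largest median difference without sign of the 8 role classes, 0.32 on the log2 scale beside 0.13 over all tested members. Of the 11 tested HSP70 entries 8 had a log2 fold change above 0 and 3 below 0, with a median of 0.24, beside −0.02 over all tested genes and 47.4% of all tested genes above 0. None was called. HSPA14 was counted under both its identifiers, which had opposite signs. HSPA1A and HSPA1B share most of their transcript sequence, so they were not fully separate measurements. HSPA8, the constitutive HSP70 that also uncoats clathrin, had 1398, 1444 and 1128 CPM in OE_GPX3 replicates 1, 2 and 3 and 1252, 886 and 1107 CPM in Vector replicates 1, 2 and 3. All 3 OE_GPX3 values lay above 2 of the 3 Vector values, and the groups overlapped through Vector replicate 1. The log2 fold change was 0.29 ± 0.12 (SE; 95% interval 0.05 to 0.53), with an adjusted p of 0.260 in edgeR's quasi-likelihood test, and 0.17 without Vector replicate 2.

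The stress-inducible pair HSPA1A and HSPA1B, which encode nearly the same HSP70 protein from neighbouring genes in the MHC region of chromosome 6, had the largest positive HSP70 fold changes. HSPA1B (chr6:31827735-31830255, + strand, in hg38 as deposited) had 45.5, 30.3 and 29.6 CPM in OE_GPX3 replicates 1, 2 and 3, against 27.7, 13.9 and 19.1 CPM in Vector replicates 1, 2 and 3. Every OE_GPX3 library was above every Vector library, but OE_GPX3 replicate 3 exceeded Vector replicate 1 only slightly. The log2 fold change was 0.80 ± 0.29 (SE; 95% interval 0.12 to 1.49; 1.75-fold), with an adjusted p of 0.292 (edgeR). It was 1.10 ± 0.16 (SE) without Vector replicate 1, the highest Vector library of HSPA1B. The adjusted p was then 4.3e-09 (edgeR), with 116 genes called in that fit, against 38 with all libraries. It was 0.57 ± 0.14 (SE) without OE_GPX3 replicate 1 (adjusted p = 0.00647, edgeR), where 657 genes were called. Both SEs lay below the 0.29 with all libraries. HSPA1A (chr6:31815464-31817946, + strand) had 64.2, 47.6 and 46.8 CPM in OE_GPX3 replicates 1, 2 and 3, against 52.5, 21.3 and 38.8 CPM in Vector replicates 1, 2 and 3. Here the groups overlapped, again through Vector replicate 1, and Vector replicate 2 was far below the other Vector libraries. The log2 fold change was 0.50 ± 0.38 (SE; 95% interval −0.51 to 1.51), with an adjusted p of 0.598 (edgeR). It was 0.82 ± 0.14 (SE) without Vector replicate 1 (adjusted p = 9.7e-06, edgeR) and 0.21 without Vector replicate 2. Vector replicate 1 was the library that made the groups overlap, and without it the SE fell from 0.38 to 0.14. That p thus depends on the library left out and on the lower SE.

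Reads of these genes could not be assigned cleanly, since 72.6% of the 50-base windows of HSPA1A transcripts occur in HSPA1B and 73.5% of those of HSPA1B are shared. Summed, the pair had 109.7, 78.0 and 76.4 CPM in OE_GPX3 replicates 1, 2 and 3, against 80.2, 35.2 and 57.9 CPM in Vector replicates 1, 2 and 3. The log2 fold change of the sum was 0.61 ± 0.36 (SE), with an adjusted p of 0.513 (edgeR). It was 0.92 (adjusted p = 2.9e-08, edgeR) without Vector replicate 1, the highest Vector library of the sum. In the deposited table HSPA1A took 58.9%, 61.5% and 61.6% of the pair's FPKM in OE_GPX3 cells and 65.9%, 60.9% and 67.4% in Vector cells, shares that overlap. A further gene on the same strand, AL671762.1, overlaps 920 exon bases of HSPA1B (36.5%) and held 0 counts. How reads in that stretch were counted is uncertain, and so are the HSPA1B level and these shares. Relative to HSPA8, the pair's summed FPKM was 0.152, 0.105 and 0.131 in OE_GPX3 cells and 0.124, 0.0772 and 0.102 in Vector cells.

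HSPA2, a germline HSP70 also made in somatic cells, shared its highest and lowest libraries with HSPA1A and HSPA1B, with 140, 101 and 89.8 CPM in OE_GPX3 replicates 1, 2 and 3 and 101, 60.3 and 88.1 CPM in Vector replicates 1, 2 and 3. Its log2 fold change was 0.41 ± 0.23 (SE; adjusted p = 0.461, edgeR), and 0.57 ± 0.13 (SE) without Vector replicate 1 (adjusted p = 0.00409, edgeR). Vector replicate 1 was the highest Vector library of HSPA2, so that p depends on the library left out and on the lower SE. For HSPA2 no fit without Vector replicate 2, its lowest library, is given here. HSPA13, a microsomal HSP70-like ATPase, ran the other way, with 12.4, 16.3 and 12.7 CPM in OE_GPX3 replicates 1, 2 and 3, against 12.2, 23.4 and 20.9 CPM in Vector replicates 1, 2 and 3. Vector replicate 1 was the lowest of the 6 libraries and Vector replicates 2 and 3 the highest. The log2 fold change was −0.45 ± 0.19 (SE; adjusted p = 0.284, edgeR), and −0.68 ± 0.16 (SE) without Vector replicate 1 (adjusted p = 0.00735, edgeR). HSPA9, the mitochondrial HSP70 mortalin, had 398, 366 and 360 CPM in OE_GPX3 cells and 420, 463 and 388 CPM in Vector cells, with a log2 fold change of −0.18 ± 0.10 (SE; adjusted p = 0.425, edgeR). HSPA12A, HSPA12B and HSPA1L had log2 fold changes of 0.05, 0.24 and 0.32.

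**Figure D2:**
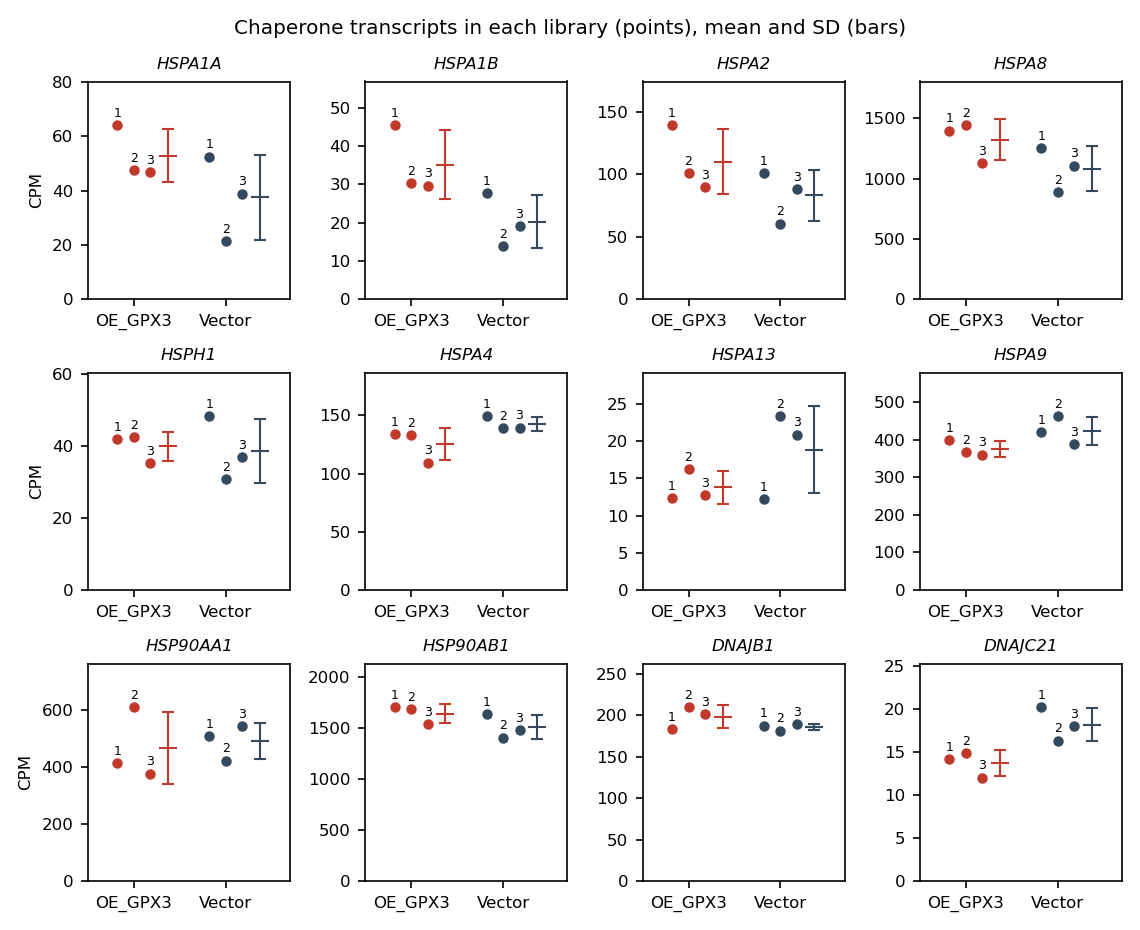
CPM (scaled counts, axes from 0) of 12 chaperone genes in each library, OE_GPX3 in red on the left and Vector in dark blue on the right; points carry the replicate number, and the bars give the mean and SD of 3 libraries. Vector replicate 2 was the lowest library for HSPA1A, HSPA1B, HSPA2, HSPA8 and HSPH1, and OE_GPX3 replicate 1 was the highest for HSPA1A, HSPA1B and HSPA2.

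HSPA14 and DNAJC2 form the ribosome-associated complex that meets nascent chains. The HSPA14 model with the shorter span, ENSG00000284024 (chr10:14838160-14847018, + strand), has 4924 exon bases. It had 14.5, 13.9 and 13.2 CPM in OE_GPX3 cells and 18.1, 18.8 and 15.6 CPM in Vector cells, with no overlap. Its log2 fold change was −0.33 ± 0.14 (SE; adjusted p = 0.280, edgeR). The model with the longer span, ENSG00000187522 (chr10:14838164-14871741, + strand), overlaps it and has 2644 exon bases. It had 13.0, 13.2 and 9.86 CPM in OE_GPX3 cells and 12.8, 10.5 and 11.4 CPM in Vector cells, a log2 fold change of 0.06. Summed over both models, HSPA14 had 27.4, 27.1 and 23.1 CPM in OE_GPX3 cells and 30.8, 29.4 and 27.0 CPM in Vector cells, and the log2 fold change was −0.17 (adjusted p = 0.542, edgeR). The models share 460 exon bases, 9.34% of those of ENSG00000284024 and 17.4% of those of ENSG00000187522. Which model a read in that stretch belonged to is uncertain. DNAJC2, the J-domain partner, had 6.11, 6.08 and 5.45 CPM in OE_GPX3 cells and 7.34, 7.35 and 8.01 CPM in Vector cells. Its groups did not overlap, and the log2 fold change was −0.36 ± 0.18 (SE; adjusted p = 0.340, edgeR).

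The HSP110 proteins, which exchange nucleotide on HSP70, had log2 fold changes near or below 0 in the main fit, none called. HSPH1, the heat-inducible HSP110, had 41.9, 42.4 and 35.4 CPM in OE_GPX3 replicates 1, 2 and 3 and 48.4, 30.8 and 36.9 CPM in Vector replicates 1, 2 and 3, with a log2 fold change of 0.05 ± 0.13 (SE; 95% interval −0.23 to 0.32). Vector libraries held both the highest and the lowest value. The sign of HSPH1 turned under total-count scaling (−0.01) and without Vector replicate 2 (−0.10). Its log2 fold change rose to 0.21 ± 0.12 (SE) with a correction for GC content. It reached 0.24 at most when each library was left out in turn. HSPA4, the most abundant HSP110, had 134, 133 and 109 CPM in OE_GPX3 cells and 149, 139 and 139 CPM in Vector cells, with no overlap and a log2 fold change of −0.19 ± 0.11 (SE; adjusted p = 0.409, edgeR). HSPA4L had a log2 fold change of −0.21. The summed FPKM of HSP110 over that of HSP70 was 0.0754, 0.0785 and 0.0777 in OE_GPX3 cells and 0.0959, 0.112 and 0.0982 in Vector cells. The 2 groups did not overlap in this ratio, which was chosen after its values were seen and carries no test.

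Both cytosolic HSP90 genes overlapped between the groups. HSP90AB1, the constitutive form, had 1706, 1682 and 1538 CPM in OE_GPX3 cells and 1639, 1406 and 1481 CPM in Vector cells, a log2 fold change of 0.12 ± 0.10 (SE; 95% interval −0.09 to 0.33). HSP90AA1, the inducible form, had 415, 612 and 377 CPM in OE_GPX3 replicates 1, 2 and 3 and 508, 423 and 545 CPM in Vector replicates 1, 2 and 3. OE_GPX3 libraries held its highest and both of its lowest values. Its log2 fold change was −0.07 ± 0.16 (SE), 0.02 with a correction for GC content, and between −0.30 and 0.076 when each library was left out in turn. HSP90AA1 over HSP90AB1 in FPKM was 0.138, 0.206 and 0.139 in OE_GPX3 cells and 0.176, 0.171 and 0.209 in Vector cells. Of the windows of HSP90AB1 18.8% recur in other genes, and of those of HSP90AA1 17.5%, so both levels carry that uncertainty.

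In mitochondria, HSPD1 and HSPE1 are transcribed head to head on chromosome 2 and encode the HSP60 chamber and its HSP10 lid. HSPD1 had 590, 620 and 520 CPM in OE_GPX3 cells and 620, 600 and 563 CPM in Vector cells, a log2 fold change of −0.04 ± 0.10 (SE; 95% interval −0.25 to 0.17). HSPE1 had 83.0, 98.0 and 67.6 CPM in OE_GPX3 cells and 77.6, 71.6 and 72.2 CPM in Vector cells, a log2 fold change of 0.17 ± 0.12 (SE; 95% interval −0.07 to 0.40). The OE_GPX3 values of HSPE1 lay on both sides of the Vector values. HSPD1 turned positive with the GC correction (0.07) and without OE_GPX3 replicate 3 (0.04). The ratio of HSPD1 to HSPE1 in FPKM was 3.31, 2.95 and 3.58 in OE_GPX3 cells and 3.72, 3.90 and 3.63 in Vector cells, also without overlap, chosen after its values were seen and not tested. Exons of the pair overlap by 281 bases on opposite strands, and processed copies listed apart from HSPD1 held 0.841% as many counts as HSPD1 itself.

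The CCT subunits assemble into 1 ring complex. Of 8 tested CCT genes 3 were above and 5 below 0, with a median log2 fold change of −0.06 and a range of −0.45 (CCT6B) to 0.15 (CCT3), and none was called. CCT7, the most abundant by FPKM, had 738, 909 and 834 CPM in OE_GPX3 cells and 749.8, 791 and 824 CPM in Vector cells, a log2 fold change of 0.07 ± 0.10 (SE). CCT3 had 674, 733 and 676 CPM in OE_GPX3 cells and 633, 609 and 633 CPM in Vector cells, with no overlap, and its log2 fold change was 0.15 ± 0.10 (SE; 95% interval −0.05 to 0.36; adjusted p = 0.478, edgeR). CCT4 was lower without overlap, at 315, 328 and 288 CPM in OE_GPX3 cells against 335, 340 and 329 CPM in Vector cells, a log2 fold change of −0.11 (adjusted p = 0.620, edgeR). CCT2, CCT5, CCT6A and CCT8 had log2 fold changes of 0.04, −0.01, −0.11 and −0.14. CCT6B, the testis form of CCT6A, was at 2.24, 1.59 and 1.88 CPM in OE_GPX3 cells and 2.82, 2.88 and 2.08 CPM in Vector cells, with a log2 fold change of −0.45 ± 0.28 (SE; adjusted p = 0.456, edgeR). TCP1, the CCT1 subunit that the name rule left out, had 169, 158 and 145 CPM in OE_GPX3 cells and 186, 151 and 152 CPM in Vector cells, a log2 fold change of −0.05 (adjusted p = 0.840, edgeR).

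J-domain proteins deliver substrates to HSP70 and make up 42 of the members, 35 of them tested. The tested DNAJA, DNAJB and DNAJC genes had median log2 fold changes of −0.13 (3 genes), −0.01 (8 genes) and −0.03 (24 genes). DNAJB1, the main stress-inducible J-domain partner of HSP70, had 183, 209.8 and 202 CPM in OE_GPX3 cells and 187, 181 and 189 CPM in Vector cells, a log2 fold change of 0.09 ± 0.10 (SE; 95% interval −0.11 to 0.30). The Vector values fell inside the range of the OE_GPX3 values or just below it. DNAJA1, a farnesylated partner of HSPA8, had 130.2, 133 and 102 CPM in OE_GPX3 cells and 127, 108 and 118 CPM in Vector cells. Its log2 fold change was 0.05 ± 0.11 (SE). It turned to −0.01 under total-count scaling and rose to 0.19 ± 0.09 (SE) with the GC correction. DNAJC5, the cysteine-string protein of exocytosis, was the most abundant DNAJC gene with 198, 224 and 229 CPM in OE_GPX3 cells and 191, 192 and 218 CPM in Vector cells, a log2 fold change of 0.11.

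DNAJC21, a J-domain protein of 60S ribosome maturation, had the smallest p of all members. It had 14.1, 14.9 and 12.0 CPM in OE_GPX3 cells, against 20.2, 16.3 and 18.0 CPM in Vector cells. Every OE_GPX3 library lay below every Vector library. The log2 fold change was −0.41 ± 0.14 (SE; 95% interval −0.70 to −0.11; 1.33-fold lower), with an adjusted p of 0.201 (edgeR). DNAJB14, an endoplasmic reticulum membrane protein with its J domain in the cytosol, had 3.76, 6.91 and 4.41 CPM in OE_GPX3 cells and 7.34, 6.33 and 6.85 CPM in Vector cells, a log2 fold change of −0.44 ± 0.20 (SE; adjusted p = 0.313, edgeR). OE_GPX3 replicate 2 alone reached the Vector range. Its paralogue DNAJB12 had a log2 fold change of 0.12.

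None of the other J-domain genes given by library was called. DNAJC15, of the mitochondrial inner membrane, had 1.68, 1.65 and 0.324 CPM in OE_GPX3 cells and 2.31, 1.90 and 1.96 CPM in Vector cells, a log2 fold change of −0.73 ± 0.37 (SE; adjusted p = 0.359, edgeR) and of −0.29 without OE_GPX3 replicate 3. DNAJB13, an axonemal protein of cilia and sperm, had 1.12, 0.708 and 0.649 CPM in OE_GPX3 cells and 0.677, 0.360 and 0.367 CPM in Vector cells, a log2 fold change of 0.82 ± 0.48 (SE; adjusted p = 0.422, edgeR). DNAJC10, a disulphide reductase of the endoplasmic reticulum, had 38.9, 50.05 and 38.9 CPM in OE_GPX3 cells and 49.1, 49.3 and 48.8 CPM in Vector cells, a log2 fold change of −0.20 (adjusted p = 0.419, edgeR). DNAJC14 had 23.7, 25.2 and 24.5 CPM in OE_GPX3 cells and 23.3, 21.5 and 20.9 CPM in Vector cells, with no overlap and a log2 fold change of 0.16 (adjusted p = 0.569, edgeR).

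Over the whole set the groups did not overlap in 11 of 61 tested members, or 18.0%, beside 18.5% of all tested genes. Among these CCT3, DNAJC14 and HSPA1B were higher in OE_GPX3 cells (8.62% of all tested genes were), and CCT4, DNAJB6, DNAJC2, DNAJC15, DNAJC18, DNAJC21, HSPA4 and the HSPA14 model ENSG00000284024 were lower (9.9% of all). The median log2 fold change was −0.01 over members and −0.02 over all tested genes, and the median size without sign was 0.13 and 0.16. For 45 of the 61 members the 95% interval lay inside a 1.5-fold change in either direction, and for 54 it included 0. A p that misses the threshold does not show equal expression, but for those 45 genes a change beyond 1.5-fold lay outside the interval.

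**Figure D3:**
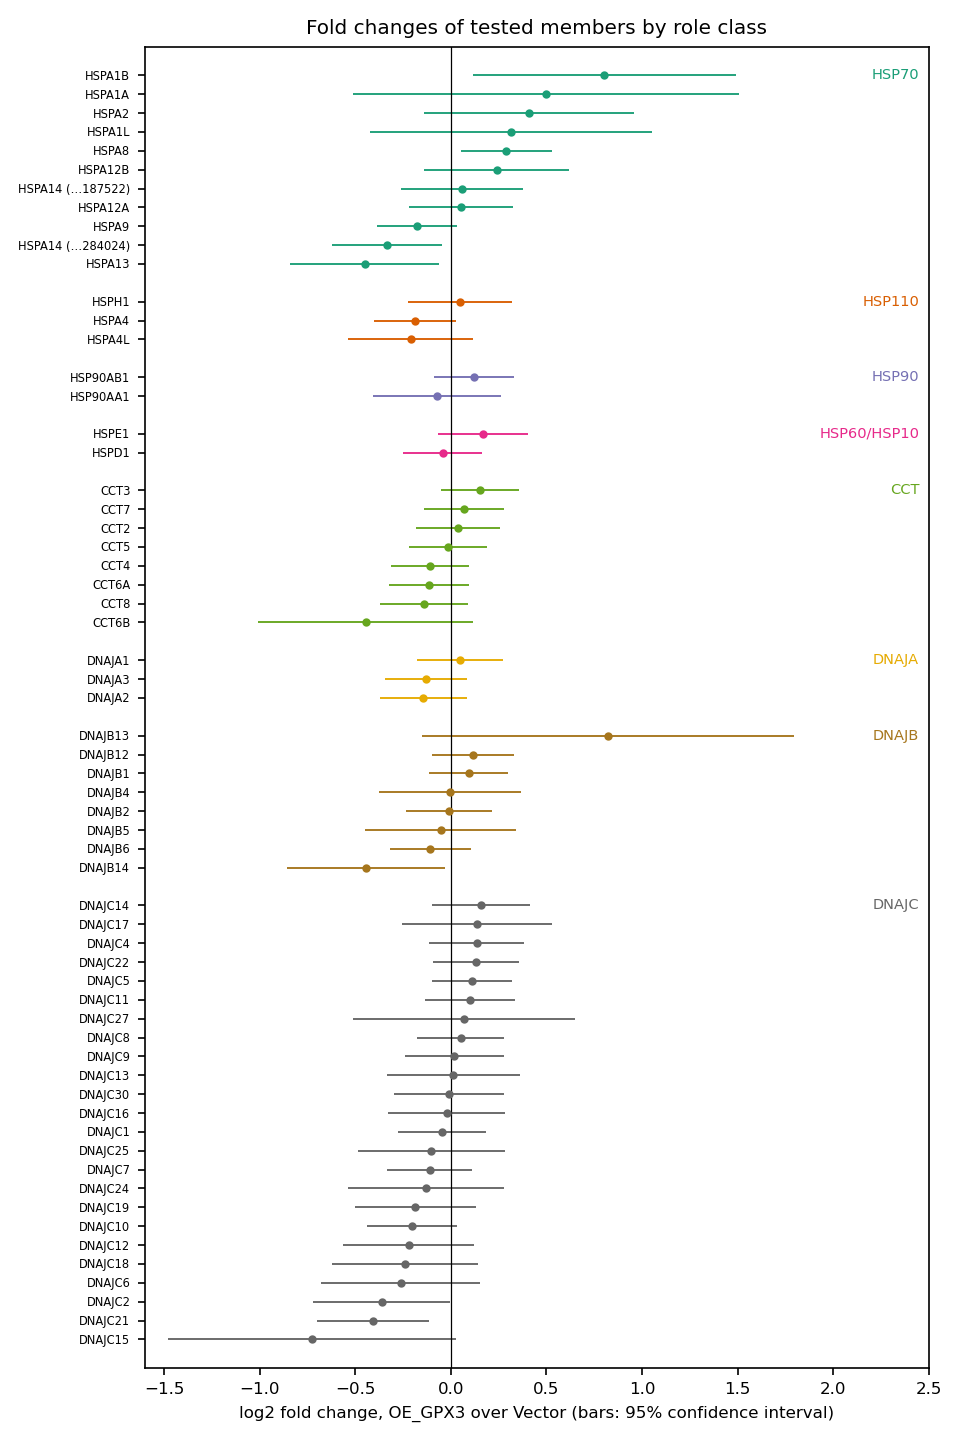
Log2 fold change of the 61 tested members, OE_GPX3 over Vector, with 95% confidence intervals from edgeR's quasi-likelihood fit, grouped by role class; the 2 HSPA14 models carry the last 6 digits of their identifiers. The HSP70 class at the top has the largest median size of difference (0.32), most CCT and HSP90 genes lie near 0, and 54 of the 61 intervals include 0.

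Spread between replicates differed sharply between chaperones. Among members of at least 5 CPM (55 genes) the median SD of log2 CPM within groups was 0.137, beside 0.147 over all 10351 such genes. Above the 95th percentile of all genes (0.291) lay 7 members, or 12.7%. HSPA1A (0.50), HSPA1B (0.427), HSPA13 (0.382) and HSPA2 (0.357) led, followed by DNAJC24, DNAJB14 and HSP90AA1. CCT3 (0.0537), DNAJB6 (0.0598) and CCT5 (0.0625) were the steadiest. HSPA1A stood at the 99.7th percentile of all genes and HSPA1B at the 99.5th, so the genes with the largest HSP70 differences were also among those that varied most between libraries of 1 group.

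**Figure D4:**
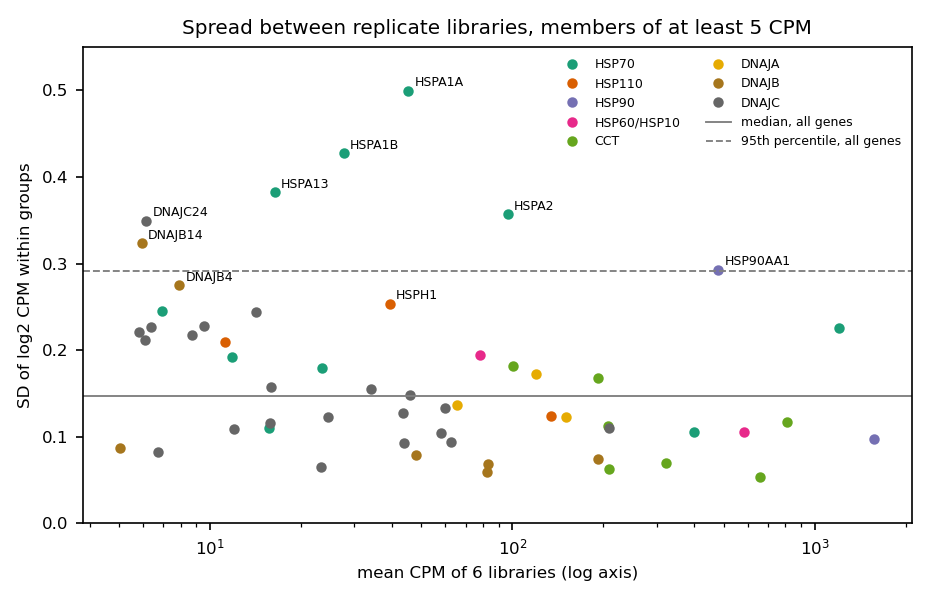
SD of log2 CPM within groups (pooled over OE_GPX3 and Vector) against mean CPM of 6 libraries (log axis) for the 55 members of at least 5 CPM; the solid line is the median of all 10351 genes of that level and the dashed line their 95th percentile. HSPA1A, HSPA1B, HSPA13 and HSPA2 lie well above the dashed line, while CCT3 at 0.0537 lies far below the median.

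Fold changes followed the base composition of the transcripts. Over the 61 members the Spearman correlation of log2 fold change with the GC content of the longest transcript was 0.66, and over 14450 genes it was 0.53; these are descriptions across genes that share the same 6 libraries. GC content had a median of 45.1% in members (33.1% to 64.6%) and of 49.0% in all tested genes. After a correction for GC content the correlation over members was 0.20, 0 members were called (0.0277% of all genes were), and the median log2 fold change over members was 0.02. HSPA8 moved to 0.35, HSPA1B to 0.69 and HSPA1A to 0.37, and the HSP70 class kept 8 entries above 0 and 3 below with a median of 0.18. The AT-rich genes DNAJC21 and HSPA13 moved to −0.24 and −0.27, the HSPA14 model ENSG00000284024 to −0.24, and HSPA4 and HSPA9 each to −0.05. DNAJB14 and DNAJC2 moved to −0.26 and −0.24, and DNAJC10 and CCT4 to −0.02 and −0.01. HSPH1 and DNAJA1 moved up to 0.21 and 0.19. The DNAJC class had 13 genes above 0 and 11 below with the correction, and 10 above and 14 below without it.

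**Figure D5:**
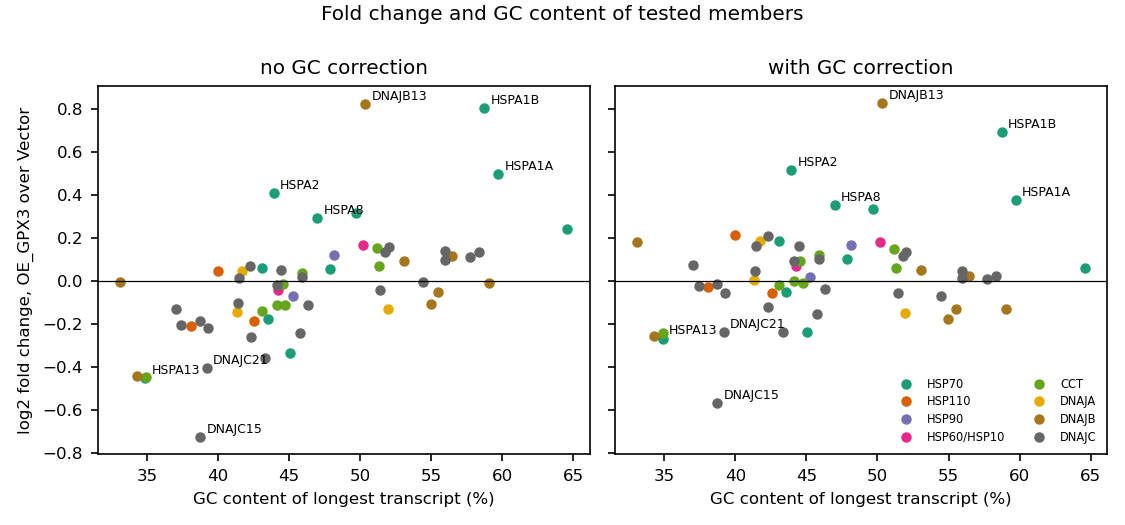
Log2 fold change, OE_GPX3 over Vector, against GC content of the longest transcript (%) for the 61 tested members, without (left) and with (right) a correction for GC content across all genes; colours mark role classes. The points slope upward on the left (Spearman 0.66) and much less on the right (0.20), and with the correction DNAJB13, HSPA1B and HSPA2 are the highest genes.

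Genes that work with these chaperones, taken from lists of their regulators and partners, held 0 called genes as well. All values of these lists are given without the GC correction. Among heat shock factors (5 tested, 3 above 0) HSF1, the main activator of the response, had 185, 196 and 227 CPM in OE_GPX3 cells and 176, 211 and 207 CPM in Vector cells, a log2 fold change of 0.03. HSF2, its developmental relative, had 6.11, 5.08 and 5.06 CPM in OE_GPX3 cells and 7.28, 7.30 and 7.40 CPM in Vector cells, a log2 fold change of −0.43 (adjusted p = 0.275, edgeR), and HSF4 had −0.29. Among HSP70 nucleotide exchange factors (9 tested, 4 above 0) the mitochondrial GRPEL2 had a log2 fold change of −0.51 (adjusted p = 0.169, edgeR) and BAG5 of −0.26. Among HSP90 co-chaperones (21 tested, 13 above 0, median 0.10) 7 had an unadjusted p under 0.05, 5 with a positive and 2 with a negative log2 fold change, where 14.6% of all tested genes had such a p. FKBP4, an immunophilin of steroid receptor complexes, had 316, 391.5 and 372 CPM in OE_GPX3 cells and 290, 273 and 309 CPM in Vector cells, without overlap, a log2 fold change of 0.31 ± 0.10 (SE; adjusted p = 0.182, edgeR). AHSA1, which activates the HSP90 ATPase, had 208, 227 and 212 CPM in OE_GPX3 cells and 194, 167 and 187 CPM in Vector cells, also without overlap, a log2 fold change of 0.24 (adjusted p = 0.276, edgeR). The 2 negative ones, named after their values were seen, were CHORDC1 (−0.33) and TSC1 (−0.31), both without overlap between the groups.

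Partners of CCT such as prefoldin (12 tested, 4 above 0) had a median log2 fold change of −0.05, with PDCL at −0.23 and URI1 at −0.18. Mitochondrial chaperones and proteases (12 tested, 8 above 0) had a median of 0.08, with HTRA2 at 0.27 and SPG7 at 0.19. Of the 5 endoplasmic reticulum chaperones left out by the rule, 2 were above 0, with DNAJB9 at −0.37 and DNAJB11 at 0.20. On the list of small heat shock proteins, HSPB1, HSPB8, HSPB11 and CRYAB were tested. All 4 were above 0, beside 47.4% of all tested genes. HSPB1 had 373, 389 and 377 CPM in OE_GPX3 cells and 356, 273 and 344 CPM in Vector cells. Its log2 fold change was 0.23 ± 0.11 (SE; adjusted p = 0.321, edgeR). Vector replicate 2 was the lowest library for HSPB1 too. CRYAB had a log2 fold change of 0.94 at 0.566 to 2.08 CPM over the 6 libraries (adjusted p = 0.252, edgeR).

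Some member values depend on how reads were shared between genes. More than 10% of 50-base windows recur in other genes for 14 members, among them HSPA6 (45.5%), HSPE1 (27.2%), HSPD1 (24.8%) and HSPA8 (15.4%). Exons also overlap neighbours on the opposite strand, as for DNAJC14 with ORMDL2, DNAJB1 with TECR, DNAJC2 with PMPCB and DNAJC30 with BUD23. No source used here states strand-aware counting, so reads in the shared stretches of such pairs cannot be told apart. For these pairs the stretches cover 21.9% of the exon bases of DNAJC14, 5.75% of DNAJB1, 9.57% of DNAJC2 and 14.4% of DNAJC30.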

How the data were processed

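Gene counts were measured in 3 OE_GPX3 and 3 Vector libraries of A549 cells. The authors deposited a table of counts per gene and a table of FPKM per gene, 1 column per library. The build was hg38, per the submitters' processing notes; aligner, counter, annotation and strand use are stated in none of the sources used here, but the coordinates of all 70 members equal those of GENCODE 29. Libraries held 15831693 to 18751815 counts.

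Counts were tested with edgeR 4.0.16 (R 4.3.3; filterByExpr with a minimum count of 10 and a minimum total count of 15, TMM, robust quasi-likelihood fit, two-sided) over all 6 libraries, with Benjamini-Hochberg adjustment over 14458 genes and a threshold of 0.05. CPM used TMM-scaled library sizes. The deposited FPKM served for levels between genes and ratios, and for limma 3.58.1 on log2(FPKM + 1) and log2(FPKM + 0.1) in genes of a mean FPKM of at least 1. Alternatives were DESeq2 1.42.0, other scalings and filters, a loess GC correction (span 0.3), a replicate block and leaving out each library; summing HSPA1A with HSPA1B and both HSPA14 identifiers was added after the data were seen. On simulated data of 14268 genes the fit for OE_GPX3 over Vector recovered 41 of 67 genes changed 1.5-fold, 66 of 67 changed 2-fold and 66 of 66 changed 4-fold, with 11 false calls among 184. The changed genes were drawn from those of at least 5 CPM, and no shift linked to GC content was put in. More genes were called there (184) than in the data (38), which makes the adjusted threshold easier to pass. Recovery in the data may thus be lower, and HSPA1B, at 1.75-fold with an SE of 0.29 (log2), was not called in the main fit.

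The members and lists were chosen with earlier results of these data known. Values in all libraries are given for GPX3, for a fixed group of main chaperones (HSPA1A, HSPA1B, HSPA8, HSPH1, HSP90AA1, HSP90AB1, HSPD1, HSPE1, HSPA9, DNAJB1, DNAJA1), for the 10 members with the smallest p, for the largest rise and fall in each class of at least 5 tested genes, and for the highest FPKM in each class. HSPA2, CCT4 and the HSPA14 model ENSG00000187522 were added after their values were seen. Shared sequence was counted in 50-base windows of GENCODE 29 transcripts. Promoters came from the RefSeq table (GRCh38.p14), which held no entry for CCT6A, DNAJC1, DNAJC22, DNAJC24, DNAJC5B, HSPA12B and HSPA14.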

Additional observations from a re-analysis of the deposited data

How the results depend on the processing

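Of all tested genes 38 were called. The count was 68 with total counts alone (13 higher), 129 without the filter on low counts (51 higher), 4 with the GC correction, 115 with DESeq2 (74 higher), and 10 and 11 with limma on log2(FPKM + 1) and log2(FPKM + 0.1). It ranged from 1 to 657 when each library was left out, lowest without OE_GPX3 replicate 2 and highest without OE_GPX3 replicate 1; the cause was not tested. Of the members 0 were called. HSPA1B alone was called without the filter (log2 fold change 0.80 ± 0.13 (SE), adjusted p = 8.0e-06, edgeR), where 26840 genes were tested. The libraries and the fold change were those of the main fit, so this call came with a lower SE (0.13 against 0.29). The members called ranged from 0 to 4 when each library was left out. The labels state no pairing. OE_GPX3 and Vector libraries of the same number had correlated deviations from their group means for replicates 1 (0.192) and 3 (0.114), each closest to its own number, but not for replicate 2 (0.0104), where OE_GPX3 was closer to Vector replicate 3 (0.0493), so the numbers were not taken as pairs. With the replicate block 231 genes (1.6%; 141 higher) and 1 member were called, HSPA1B (0.82, adjusted p = 0.00452, edgeR), and with block and GC correction together 49 genes and 1 member, again HSPA1B (0.70, adjusted p = 0.00824, edgeR).

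Signs turned for DNAJA1 and HSPH1 with total counts alone (both −0.013), for HSP90AA1 (0.019) and HSPD1 (0.067) with the GC correction, and for HSPD1 (0.065) with the GC correction and replicate block. Over the fits that left out 1 library, log2 fold changes ranged from −0.013 to 0.17 for DNAJA1, −0.30 to 0.076 for HSP90AA1, −0.089 to 0.038 for HSPD1 and −0.096 to 0.24 for HSPH1. HSPA1A ranged from 0.21 to 0.82, HSPA1B from 0.57 to 1.10, HSPA8 from 0.17 to 0.41 and HSPA13 from −0.68 to −0.26. The median over members stayed between −0.07 and 0.03 under the alternatives run, within the replicate spread of that median (0.067). With 3 libraries a group, differences near 1.5-fold were recovered in part in simulated data, so smaller differences of single chaperones could not be resolved.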
